A study of Mus musculus with 6 samples.

Results

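The genes that present antigen on major histocompatibility complex (MHC) class II were described in 6 RNA sequencing libraries of infarcted mouse heart. The members were fixed by name as H2-Aa, H2-Ab1, H2-Eb1, H2-DMa, H2-DMb1, Cd74 and Ciita. All 7 were found by summing the transcript models of each Entrez gene, out of 17524 genes in the table. The 3 libraries numbered 34, 41 and 43, called TFEB here, are labelled TFEB overexpression, and the design text names R26-LSL-TFEB [+/+]; Acta2-cre mice. In such mice a TFEB cassette at the Rosa26 locus is switched on by Cre in cells that have used the Acta2 promoter, which is active in smooth muscle and myofibroblasts. The 3 control libraries, numbered 35, 36 and 37, are labelled WT, and whether they carried Cre or the cassette is not given in the labels. Both groups underwent ligation of the anterior descending branch of the left coronary artery. Age, strain, sex and the time after ligation are not given in the labels. Nor do the labels say whether each library came from its own animal, and the p-values cover the spread among these 6 libraries, which may be technical.

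MHC class II molecules are an alpha and a beta chain that carry peptides from endocytosed proteins to the surface for CD4+ T cells. The invariant chain, encoded by Cd74, fills their groove on the way to the endosome. There lysosomal proteases trim it, and the H2-DM heterodimer exchanges its last fragment for peptide. Dendritic cells, B cells and some macrophages make these genes constantly, and interferon gamma turns them on in other cells. Ciita, the class II transactivator, is the coactivator that sets their transcription. It binds no DNA itself but is recruited by RFX, CREB and NF-Y factors on the X and Y boxes of their promoters. In mouse heart the main class II cells are known to be macrophages, dendritic cells and B cells.

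Promoter windows from RefSeq (build GRCm38.p6, the assembly of mm10) were read for the members, from 250 bases before to 50 after each annotated start. Of the 7 members, 4 had a window and 5 windows were found, since H2-DMa has 2. Those of H2-Aa, H2-Eb1 and H2-DMb1 are shown because they hold matches to the elements on which Ciita is recruited. They are written 5′ to 3′ in the direction of the gene. Capitals mark the Y box core GATTGG, the X box consensus bound by RFX, and the CREB site TGACGTCA of the X2 element, on either strand.
H2-Aa, chr17:34287774-34288073, minus strand: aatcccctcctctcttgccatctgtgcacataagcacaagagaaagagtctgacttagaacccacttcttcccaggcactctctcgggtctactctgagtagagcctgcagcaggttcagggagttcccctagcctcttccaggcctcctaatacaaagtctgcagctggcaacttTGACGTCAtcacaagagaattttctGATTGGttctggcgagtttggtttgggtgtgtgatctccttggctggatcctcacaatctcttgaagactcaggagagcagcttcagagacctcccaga
H2-Eb1, chr17:34305617-34305916, plus strand: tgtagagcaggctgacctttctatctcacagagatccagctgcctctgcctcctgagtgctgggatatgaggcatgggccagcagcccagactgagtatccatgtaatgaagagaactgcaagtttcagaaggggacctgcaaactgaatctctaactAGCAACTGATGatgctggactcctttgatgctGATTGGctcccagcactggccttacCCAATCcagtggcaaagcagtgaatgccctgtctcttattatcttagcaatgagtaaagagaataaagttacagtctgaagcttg
H2-DMb1, chr17:34152941-34153240, plus strand: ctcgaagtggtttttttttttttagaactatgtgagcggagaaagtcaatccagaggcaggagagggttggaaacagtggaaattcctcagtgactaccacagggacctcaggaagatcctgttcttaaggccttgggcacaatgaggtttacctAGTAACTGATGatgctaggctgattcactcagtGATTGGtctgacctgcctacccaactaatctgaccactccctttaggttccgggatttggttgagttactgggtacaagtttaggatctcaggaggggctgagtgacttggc

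H2-Eb1 and H2-DMb1 had the same layout. The X box began 92 bases before the start in H2-Eb1 and 95 bases before it in H2-DMb1, and 21 and 22 bases lay between it and the Y box. H2-Eb1 held a further Y box core on the opposite strand, 35 bases before the start. In H2-Aa the Y box began 49 bases before the start and TGACGTCA began 74 before it, with 17 bases between them, and the X box pattern had no match. TGACGTCA was added to the search after the windows had been read. The downstream window of H2-DMa held a Y box core alone, 199 bases before the start, and its upstream window held none of the patterns. Of 32851 promoter windows of this length, 16.1% held GATTGG, 0.968% the X box pattern and 1.79% TGACGTCA. The E box CACGTG, the core of sites bound by TFEB, stood in 7.15% of all windows, and the core shared by interferon response sites in 3.44%. Neither had a match in the 5 member windows, which are too few for an absence at these shares to be read. H2-Ab1, Cd74 and Ciita had no window to search. No motif overlapped another in these windows. A match is a description of the sequence, and no binding was measured.

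**Figure D1:**
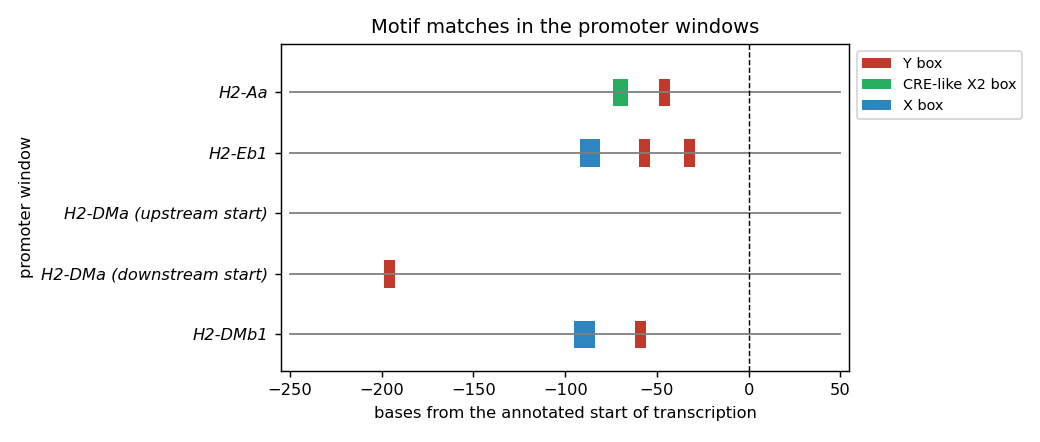
Matches to the Y box, X box and X2 patterns in the 5 promoter windows of H2-Aa, H2-Eb1, H2-DMa and H2-DMb1, by bases from the annotated start (x axis, start at 0) and by window (y axis). The X box lies upstream of the Y box in H2-Eb1 and H2-DMb1, with 21 and 22 bases between them.

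Each library held between 12942480 and 14969287 estimated counts, 1.16 times apart at most. Genes of heart muscle led these libraries although the labels also name primary fibroblasts and fibrocytes. Myh6, the main cardiomyocyte myosin, stood between 23129 and 49163 CPM, and Pdgfra, a receptor gene that marks fibroblasts, between 71.1 and 117 CPM. Other genes of the fibroblast list were far higher per length: the matrix gene Dcn averaged 1055 TPM and Gsn, an actin-severing protein gene, 1228 TPM over the 6 libraries, against 25.3 TPM for Pdgfra. Counts in libraries of a group differed by 43.5 to 149 times the variance of counting (chi-square per degree of freedom). CPM is a gene's count normalised to library size with TMM. Tfeb itself stood at 45.4, 45.3 and 39.4 CPM in TFEB 34, 41 and 43 and at 34.4, 33.8 and 41.4 CPM in controls 35, 36 and 37 (edgeR log2 fold change 0.25, SE 0.12, adjusted p = 1.00). The labels do not say if the cassette is counted with the mouse gene.

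The members spanned a wide range of levels, with the same order in every library. On the deposited TPM scale, which accounts for transcript length, Cd74 averaged 299 TPM over the 6 libraries, H2-Aa 190, H2-Ab1 129 and H2-Eb1 78.5 TPM. The H2-DM subunits followed at 11.6 TPM for H2-DMb1 and 7.97 TPM for H2-DMa, and the coactivator Ciita was last at 1.84 TPM. Each neighbour pair in this order was in the same order in 6 of 6 libraries. Over all libraries, the ranges of neighbours overlapped except between H2-Eb1 (at least 44.5 TPM) and H2-DMb1 (at most 21.1 TPM), and between H2-DMa (at least 5.59 TPM) and Ciita (at most 2.91 TPM). Of the summed TPM of the 7 genes, Cd74 made up 42.3%, 40.8% and 44.1% in TFEB 34, 41 and 43 and 39.6%, 40.0% and 42.7% in controls 35, 36 and 37.

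The genes of the peptide-binding chains were highest in TFEB 34 and lowest in control 35. H2-Aa, the alpha chain of the I-A molecule (Entrez 14960), lies on mm10 chromosome 17 from 34282744 to 34287823. Its level was 157, 90.7 and 77.9 CPM in TFEB 34, 41 and 43 and 67.3, 119 and 75.5 CPM in controls 35, 36 and 37. TFEB 34 and control 36 were the high libraries, the other 4 lay close together, and the groups overlapped. The means were 108 ± 42.2 CPM in TFEB and 87.3 ± 27.8 CPM in control (SD, n = 3 each), a log2 fold change of 0.31 (SE 0.33). In bulk tissue, fewer cells of a type and less RNA per cell cannot be told apart. H2-Ab1, the beta chain of I-A (Entrez 14961, 34263227 to 34269418), stood at 117, 65.3 and 59.7 CPM in TFEB 34, 41 and 43 and at 49.1, 78.7 and 57.0 CPM in controls 35, 36 and 37. It had the same high libraries and again overlapping groups, at a log2 fold change of 0.39 (SE 0.30). H2-Eb1 (Entrez 14969, 34305867 to 34316674) encodes the beta chain of I-E, whose alpha gene H2-Ea is a transcribed pseudogene in this C57BL/6J reference and was not analysed here. It stood at 107, 62.5 and 55.1 CPM in TFEB 34, 41 and 43 and at 37.8, 79.4 and 52.6 CPM in controls 35, 36 and 37. Its highest library was 2.84 times its lowest, the widest span among the members, and its log2 fold change was 0.41 (SE 0.35).

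Cd74, the invariant chain (Entrez 16149, from 60803849 to 60812652 on chromosome 18), was the most abundant member. It stood at 297, 160 and 161 CPM in TFEB 34, 41 and 43 and at 110, 195 and 146 CPM in controls 35, 36 and 37. Control 36 was above TFEB 41 and TFEB 43, so the groups overlapped. The means were 206 ± 78.7 CPM in TFEB and 150 ± 42.9 CPM in control (SD, n = 3 each). The log2 fold change of 0.45 (SE 0.32) was the largest of the 7.

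The H2-DM subunits and Ciita were low. H2-DMa (Entrez 14998, positions 34119693 to 34139101 of chromosome 17), the alpha subunit, stood at 10.9, 7.62 and 6.28 CPM in TFEB 34, 41 and 43 and at 5.77, 7.30 and 6.07 CPM in controls 35, 36 and 37. TFEB 43 and control 37 were almost equal, and the log2 fold change was 0.38 (SE 0.24). H2-DMb1 (Entrez 14999, 34153191 to 34160229), a beta subunit, stood at 12.0, 6.30 and 5.21 CPM in TFEB 34, 41 and 43 and at 5.57, 7.44 and 5.91 CPM in controls 35, 36 and 37. TFEB 43 was here the lowest library of all, and the log2 fold change was 0.32 (SE 0.34). H2-DMb2 is a close copy beside it in the genome, so the division of reads between them is uncertain. Ciita lies on chromosome 16 from 10480014 to 10531064 (Entrez 12265). Its level was 10.2, 6.37 and 4.79 CPM in TFEB 34, 41 and 43 and 4.76, 11.2 and 6.38 CPM in controls 35, 36 and 37. Control 36 was its highest library, unlike the other 6 members, but TFEB 34 was close. Ciita had 159 estimated counts in control 36 and 161 in TFEB 34. Its log2 fold change was −0.05 (SE 0.41).

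**Figure D2:**
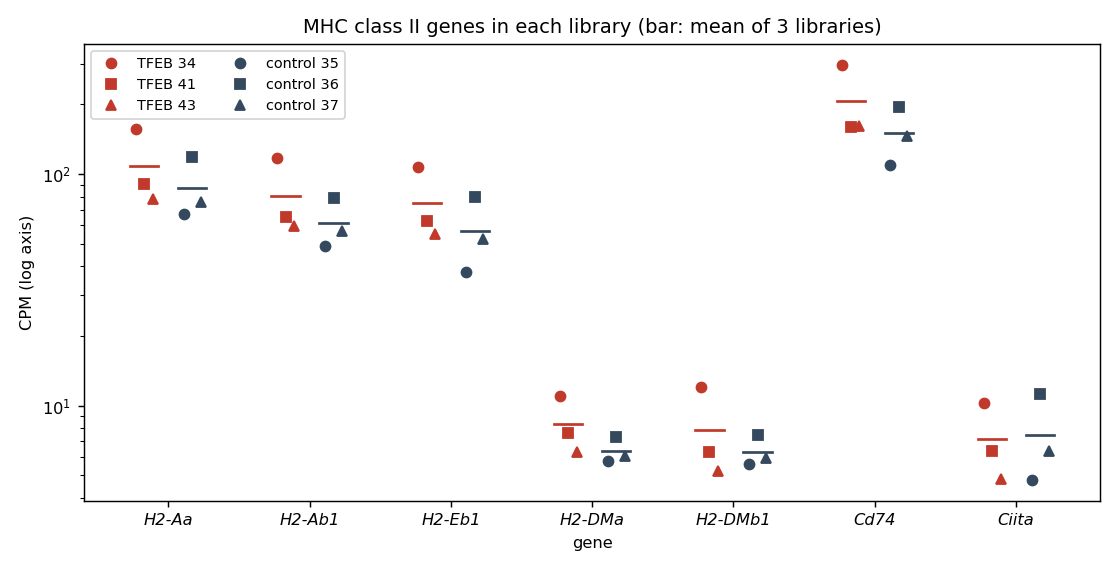
CPM (log axis) of the 7 members in each library, TFEB overexpression in red left of control in dark blue, with points for libraries and bars for group means. TFEB 34 is the highest library in 6 of 7 members and the groups overlap in all 7.

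No member passed the test between TFEB overexpression and control. With edgeR's quasi-likelihood test, adjusted over the 13565 genes tested, the adjusted p was 1.00 for each of the 7, and 0 of 13565 genes passed in either direction, a background of 0%. At an unadjusted p under 0.05 stood 164 genes, or 1.21%, and none of the members, whose smallest p was 0.169, for H2-DMa. DESeq2 called 1 gene, Ddit4, which is no member and is named after its value was seen, and had 202 genes at an unadjusted p under 0.05. Of the members, 6 of 7 had a log2 fold change above 0, where 51.0% of all genes did, and their median was 0.38 against 0.00 over all genes. The groups overlapped in all 7, where 2.24% of all genes were higher without overlap, 2.51% lower without overlap, and 4.75% either. As ratios with 95% intervals, H2-Ab1 stood at 1.31 (0.790 to 2.17), Cd74 at 1.37 (0.806 to 2.33), H2-DMa at 1.30 (0.864 to 1.96) and Ciita at 0.963 (0.489 to 1.90). H2-Aa stood at 1.24 (0.718 to 2.15), H2-Eb1 at 1.33 (0.739 to 2.38) and H2-DMb1 at 1.25 (0.706 to 2.21). Each of the 7 intervals holds both a decrease and an increase. The spread between libraries, and not depth, set these intervals: the biological coefficient of variation was 24.1% to 36.4% over the members, and counting error of a library at the mean count was 1.99% for Cd74 and 9.98% for H2-DMb1. Over all genes the median coefficient was 18.8%.

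The values depended on single libraries. TFEB 34 was the highest of the 6 in 6 of 7 members, where 26.8% of all genes were highest in it, and control 35 was the lowest in 6 of 7, where 13.4% of all genes were. Without TFEB 34 the log2 fold changes were −0.05 for H2-Aa, 0.022 for H2-Ab1, 0.055 for H2-Eb1, 0.12 for H2-DMa, −0.13 for H2-DMb1, 0.094 for Cd74 and −0.41 for Ciita. The median over the 7 was then 0.022, with 4 above 0. Without control 36, the high control, the median was 0.60 and 7 of 7 were above 0, with Ciita at 0.36. It was 0.24 without control 35, 0.47 without TFEB 41, 0.54 without TFEB 43 and 0.34 without control 37.

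**Figure D3:**
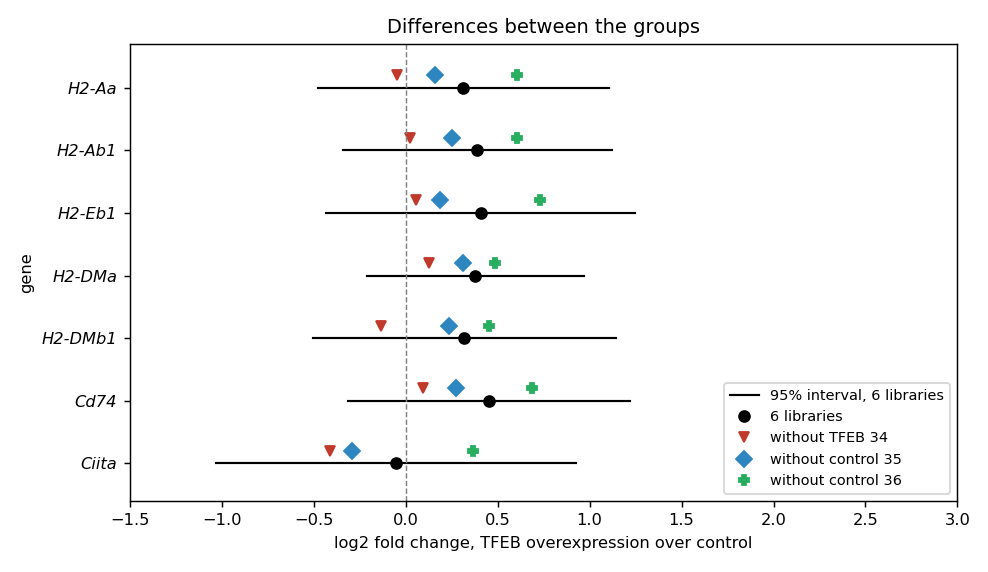
Log2 fold change of TFEB overexpression over control (x axis) for each member (y axis), with the 95% interval over 6 libraries and the value without TFEB 34, control 35 or control 36. Every interval spans 0, and without TFEB 34 the values lie between −0.41 and 0.12.

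Ratios between the members varied less than their levels. Relative to H2-Ab1 in TPM, H2-Aa stood at 1.44, 1.49 and 1.40 in TFEB 34, 41 and 43 and at 1.47, 1.63 and 1.42 in controls 35, 36 and 37. These values span 1.40 to 1.63, across libraries in which H2-Aa itself ranged from 129 to 326 TPM. Cd74 over H2-Ab1 averaged 2.38 ± 0.113 in TFEB and 2.26 ± 0.161 in control, and H2-Eb1 over H2-Ab1 0.615 ± 0.0144 in TFEB and 0.594 ± 0.0793 in control (SD, n = 3 each). Control 35 had the lowest value of both, 2.08 and 0.509. H2-DMa over H2-DMb1 averaged 0.737 ± 0.0982 in TFEB and 0.655 ± 0.0255 in control, and H2-DMa over H2-Aa 0.0440 ± 0.00400 in TFEB and 0.0411 ± 0.00530 in control (SD, n = 3 each). The exact two-sided permutation p of these 5 ratios ran from 0.3 to 0.8, where 3 libraries against 3 can give 0.1 at the smallest.

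Cd74 has 2 transcript models in the table. The long one (1410 bases in GENCODE) encodes a protein of 279 residues with an added exon whose domain is known to inhibit cathepsins, and the short one (1224 bases) a protein of 215 residues. The long model held 21.4%, 21.6% and 22.4% of Cd74 TPM in TFEB 34, 41 and 43 and 21.2%, 20.7% and 19.3% in controls 35, 36 and 37. The groups did not overlap, but the nearest libraries, TFEB 34 and control 35, were nearly equal. The difference of means was 1.39 percentage points, with an exact permutation p of 0.1, the smallest this design allows, and 0.6 when adjusted over the 6 values of this family. The shares are the authors' estimates of how reads were divided between models.

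Ciita is known to be transcribed from alternative promoters, one used in myeloid cells, one in B cells and one that responds to interferon gamma. Of its 6 models in the table, several had no annotated start in the references used here. They held 387, 61.2 and 21.6 of the gene's estimated counts over the 6 libraries. Among models with a known start, the farthest upstream began at chromosome 16, 10480059. It had 17.8, 10.3 and 11.0 estimated counts in TFEB 34, 41 and 43 and 0, 52.8 and 25.5 in controls 35, 36 and 37. The models that start at 10488279 and 10489781 had 17.6 and 12.0 counts in all. These counts are too few to rank the promoters. H2-DMa has 5 models, of which the one starting at chromosome 17, 34122832, held 96.0%, 90.9% and 47.3% of its TPM in TFEB 34, 41 and 43 and 79.7%, 86.8% and 70.8% in controls 35, 36 and 37.

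Other genes of the class II pathway did not pass either. Of 14 listed, 13 were in the table, 11 were tested and 0 passed, with a median log2 fold change of 0.14 and 9 of 11 above 0. Ctss, the cathepsin that trims the invariant chain, stood at 258, 97.0 and 27.5 CPM in TFEB 34, 41 and 43 and at 70.1, 102 and 31.7 CPM in controls 35, 36 and 37 (log2 fold change 0.91, SE 0.79). Its lowest libraries were TFEB 43 and control 37, where the class II chains were lowest in control 35. Lgmn, a protease that also acts on the invariant chain, had a log2 fold change of 0.25 (SE 0.18), Cd40, the receptor for help from T cells, at 0.48 (SE 0.34), and Marchf1, a ligase that removes class II from the surface, at 0.14 (SE 0.10). Marchf1 stood at 27.3, 23.9 and 23.8 CPM in TFEB 34, 41 and 43 and at 22.7, 23.4 and 21.9 CPM in controls 35, 36 and 37. In CPM its groups narrowly did not overlap, as for 4.75% of all genes. On the TPM scale they did, at 3.52 TPM in TFEB 43 and 4.11 TPM in control 36. H2-Ob, a subunit of the H2-DM inhibitor H2-O, stood at 2.74, 1.61 and 1.32 CPM in TFEB 34, 41 and 43 and at 0.537, 3.16 and 1.71 CPM in controls 35, 36 and 37. H2-DMb2 stood at 1.59, 0.805 and 0.496 CPM in the TFEB libraries and at 0.201, 1.61 and 0.856 CPM in the controls. In CPM, like Ciita, both were highest in control 36 and both were lowest in control 35. For H2-DMb2 the top rank was nearly a tie, with 23 estimated counts in control 36 and 25 in TFEB 34. On the TPM scale TFEB 34 was its highest library, at 2.52 TPM against 2.45 TPM in control 36. H2-Ob was close too, with 45 estimated counts in control 36 and 43 in TFEB 34. H2-Oa and H2-Eb2 were too low to be tested. H2-Ob and H2-DMb2 were chosen after their values were seen.

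**Figure D4:**
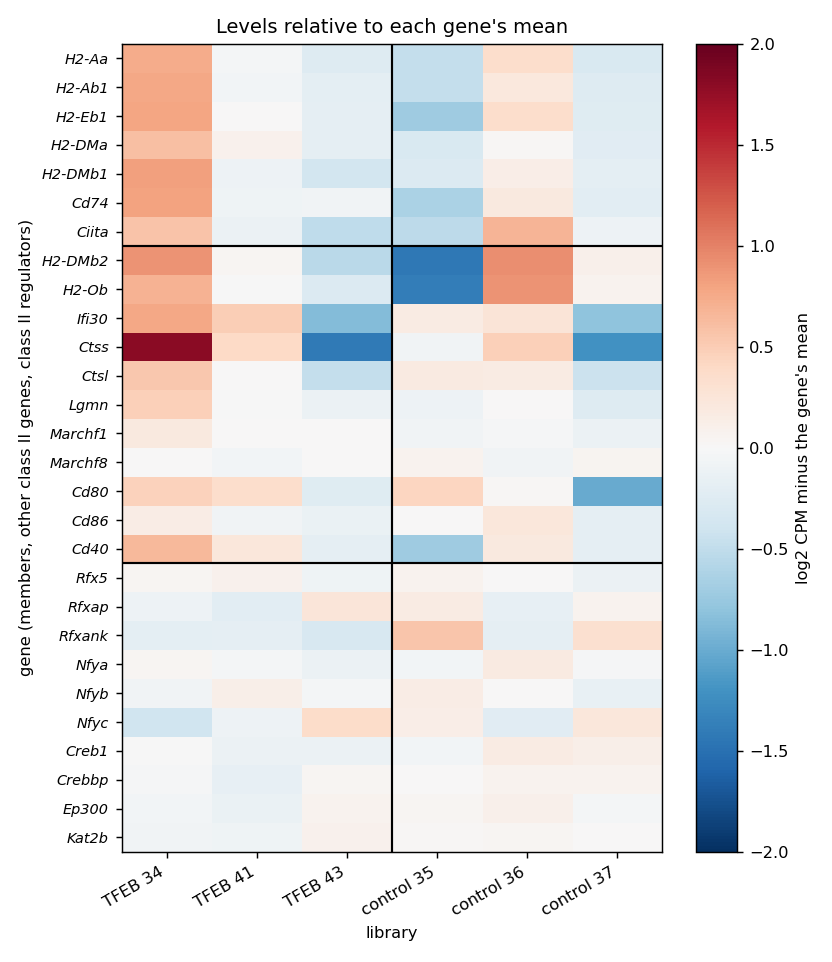
Log2 CPM of each gene minus its mean over the 6 libraries (colour) for the members, the other tested class II genes and the class II regulators (rows, top to bottom), with TFEB libraries left of controls. The members share a high TFEB 34 and a low control 35, while the regulators stay near 0 apart from Rfxank and Nfyc.

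Most regulators of class II transcription varied little. In the list of RFX, NF-Y and CREB factors and coactivators, 0 of 10 passed, 1 was above 0 and the median log2 fold change was −0.07. Rfxank, a subunit of RFX, stood at 23.8, 24.3 and 21.98 CPM in TFEB 34, 41 and 43 and at 40.2, 24.2 and 34.3 CPM in controls 35, 36 and 37. The groups overlapped at control 36. Its fold change on the log2 scale was −0.49 (SE 0.19, edgeR unadjusted p = 0.0384, adjusted p = 1.00). The log2 fold change of Creb1 stood at −0.16 (SE 0.10), Crebbp at −0.10 (SE 0.09) and Ep300 at −0.07 (SE 0.09). A list's level is defined, library by library, by centring log2 CPM of each tested gene on its own mean and averaging. That of the regulators ranged over 0.19, against 1.21 for the members. It averages genes that ran in opposite directions, such as Nfyc at 0.37 and Rfxank at −0.32 in TFEB 43. The highest library was 1.83 times the lowest for Rfxank and 1.70 times for Nfyc. For H2-DMa, the member with the narrowest span, it was 1.90 times. Nfyc was chosen after its values were seen.

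The levels of the interferon gamma and MHC class I lists ranged over 0.33 and 0.21 between libraries, against 1.21 for the members. Such a level averages genes that run in opposite directions, and single interferon genes varied as much as the members. The highest library was 7.57 times the lowest for the chemokine gene Cxcl10 and 3.59 times for Cxcl9. Cxcl10 rested on only 4 to 37 estimated counts a library, so its ratio is imprecise, and Cxcl9 on 48 to 140. Irf8, a myeloid and B cell transcription factor gene, stood at 23.4, 13.9 and 9.75 CPM in TFEB 34, 41 and 43 and at 10.9, 15.8 and 9.33 CPM in controls 35, 36 and 37, with the same high libraries as the class II chains. Cxcl10, Cxcl9 and Irf8 were chosen after their values were seen. In the interferon gamma list 0 of 20 tested genes passed, 8 were above 0 and the median was −0.06, and Ifng itself was too low to be tested. The level of the list was highest in control 37, at 0.18, where the members stood at −0.22. Iigp1, a GTPase induced by interferon, stood at 67.7, 63.9 and 97.6 CPM in TFEB 34, 41 and 43 and at 104, 85.4 and 175 CPM in controls 35, 36 and 37 (log2 fold change −0.67, SE 0.30). The log2 fold change of Gbp2 stood at −0.25 (SE 0.13), Gbp7 at −0.29 (SE 0.21) and the kinase gene Jak2 at −0.14 (SE 0.10). In the class I list 0 of 22 passed, 15 were above 0 and the median was 0.03. The subunits of the immunoproteasome Psmb10 (log2 fold change 0.30, SE 0.12, unadjusted p = 0.048 by edgeR) and Psmb9 (0.42, SE 0.21), and the chaperone gene Calr (0.24, SE 0.13), had every TFEB library above every control in CPM. These were 3 of 22, where 2.24% of all genes did so. On the TPM scale Psmb9 kept this gap. Psmb10 (55.6 TPM in TFEB 43, 60.3 TPM in control 36) and Calr (340 and 371 TPM in these libraries) overlapped. Tap2, of the peptide transporter, had a log2 fold change of −0.10 (SE 0.09).

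Markers of the cells that carry class II were set beside the members. The part of any of these cells in the members' values was not tested. Of 21 macrophage and monocyte markers tested, 0 passed and 20 were above 0, where 51.0% of all genes were. The median log2 fold change of these markers was 0.35. Their level stood at 1.01, 0.37 and −0.86 in TFEB 34, 41 and 43 and at −0.09, 0.40 and −0.84 in controls 35, 36 and 37. The members stood at 0.73, −0.05 and −0.25 in TFEB 34, 41 and 43 and at −0.48, 0.28 and −0.22 in controls 35, 36 and 37. Both were high in TFEB 34 and control 36. The macrophage markers were lowest in TFEB 43 and control 37, and the members in control 35. In TFEB 41 the macrophage level was close to that of control 36, while the members stood near their mean.

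The summed TPM of the macrophage list ran from 853 to 3420 in TFEB and from 995 to 2209 in control, and that of the 7 members from 556 to 1260 in TFEB and from 459 to 852 in control. The ratio of these separate sums, members over macrophage list, was 0.368, 0.338 and 0.652 in TFEB 34, 41 and 43 and 0.270, 0.386 and 0.535 in controls 35, 36 and 37. It was highest in TFEB 43 and control 37, where its denominator was lowest, at 853 and 995 TPM. Lyz2 weighed most in that denominator, at 803 TPM on average over the 6 libraries, and C1qb came next at 198 TPM. The receptor gene Csf1r varied much less than the list, at 150, 101 and 86.4 CPM in TFEB 34, 41 and 43 and 96.8, 123 and 90.3 CPM in controls 35, 36 and 37. Cd68, of macrophage lysosomes, stood at 38.2, 19.3 and 12.2 CPM in the TFEB libraries and 16.6, 20.1 and 8.25 CPM in the controls. Among log2 fold changes of the markers, Spp1 stood at 1.59 (SE 0.93), Trem2 at 1.16 (SE 0.88) and Aif1 at 0.51 (SE 0.34).

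As a level, markers of resident macrophages, the long-lived population known to express Cd163, Folr2 and Timd4, ran the other way in TFEB 34. In this list 0 of 8 passed, 8 of 8 were below 0 and the median log2 fold change was −0.42. Of all genes 51.0% were above 0. On the TPM scale Timd4 had the other direction, with means of 2.47 TPM in TFEB and 2.22 TPM in control. The level of the list was −0.71, −0.13 and 0.19 in TFEB 34, 41 and 43 and 0.32, 0.10 and 0.23 in controls 35, 36 and 37. In TFEB 34 its lowest gene was Timd4, at −1.90 on 6 estimated counts, while Mrc1 stood at −0.14 and Maf at 0.12. Folr2, a folate receptor, stood at 6.24, 8.42 and 11.2 CPM in TFEB 34, 41 and 43 and at 14.9, 11.5 and 13.4 CPM in controls 35, 36 and 37, with no overlap (log2 fold change −0.62, SE 0.24, edgeR unadjusted p = 0.0372, adjusted p = 1.00). Only 1 of 8 genes in the list was lower without overlap, where 2.51% of all genes were. Cd163, a scavenger receptor, had a log2 fold change of −0.70 (SE 0.25), F13a1 at −0.46 (SE 0.25) and Cbr2 at −0.50 (SE 0.33).

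Dendritic cell and B cell markers were set beside the members in the same way. Of 12 dendritic cell markers, 10 were tested, 0 passed, 6 were above 0 and the median was 0.05. Their level was 0.41, 0.04 and −0.57 in TFEB 34, 41 and 43 and −0.02, 0.55 and −0.40 in controls 35, 36 and 37. Like the members, the list was high in TFEB 34 and control 36, where 5 and 4 of the 10 genes had their highest value. Itgax, the integrin CD11c shared with macrophages, stood at 7.44, 4.98 and 1.07 CPM in TFEB 34, 41 and 43 and at 5.57, 3.93 and 0.856 CPM in controls 35, 36 and 37. In CPM, Clec10a (log2 fold change −0.81, SE 0.31), Xcr1 (−0.92, SE 0.43) and Irf4 (−0.27, SE 0.22) had every TFEB library below every control. Of all genes 2.51% did. The gap was narrow for Clec10a in TFEB 43 and control 37, and Xcr1 rested on 3 to 16 estimated counts a library. Irf4 overlapped on the TPM scale, at 1.06 TPM in TFEB 34 and 0.99 TPM in control 37. Sirpa, a receptor that macrophages also carry, was the most abundant gene of the list, at 131, 87.1 and 56.3 CPM in TFEB 34, 41 and 43 and at 67.8, 81.2 and 62.8 CPM in controls 35, 36 and 37 (log2 fold change 0.38, SE 0.30). It averaged 39.7 TPM over the 6 libraries, against 11.1 TPM for Zbtb46, the next in the list, and the summed TPM of the list, Sirpa included, ran from 48.9 to 104 in TFEB and from 54.2 to 83.1 in control. Of 10 B cell markers, 6 were tested, 0 passed and the median was −0.12. Their level was −0.06, 0.19 and −0.24 in TFEB 34, 41 and 43 and −0.98, 0.81 and 0.29 in controls 35, 36 and 37. Control 36 was the high library and control 35 the low one, but single genes differed: 3 of 6 were highest in control 36 and 2 of 6 lowest in control 35. In TFEB 34, where Ciita was nearly as high as in control 36, the B cell level was near 0. The log2 fold change of Cd79a stood at −1.03 (SE 0.80), Cd79b at −0.43 (SE 0.44) and Cd22 at 0.46 (SE 0.77). The summed TPM of the B cell list ran from 6.37 to 9.29 in TFEB and from 4.31 to 19.9 in control.

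T and NK cell markers were close to the limit of detection. Of 16, 2 were tested, Cd4 (log2 fold change 1.14, SE 0.50) and Lck (−0.16, SE 0.59), and 5 were at 0 in some library. Cd3e, of the T cell receptor complex, stood at 0.382, 0.293 and 0.165 CPM in TFEB 34, 41 and 43 and at 0.0671, 0 and 0.0778 CPM in controls 35, 36 and 37. The summed TPM of the list ran from 5.71 to 14.3 in TFEB and from 4.59 to 10.6 in control. Of 7 neutrophil markers, 3 were tested and 0 passed: Csf3r (log2 fold change 0.60, SE 0.45), S100a8 (−0.44, SE 0.83) and S100a9 (−0.33, SE 0.71). No gene of the endothelial (10 tested, median −0.02), fibroblast (10, median 0.08), cardiomyocyte (10, median 0.02) or smooth muscle and pericyte lists (9, median 0.31, 9 of 9 above 0 where 51.0% of all genes were) passed. In the last of these, Acta2, the gene that lends its promoter to Cre here, stood at 214, 291 and 174 CPM in TFEB 34, 41 and 43 and at 106, 100.3 and 137 CPM in controls 35, 36 and 37. Every TFEB library was above every control, as for 2.24% of all genes (log2 fold change 0.98, SE 0.22, edgeR unadjusted p = 0.0039, adjusted p = 1.00). The fibroblast level was 0.87, 0.33 and −1.24 in TFEB 34, 41 and 43 and 0.32, 0.44 and −0.72 in controls 35, 36 and 37.

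**Figure D5:**
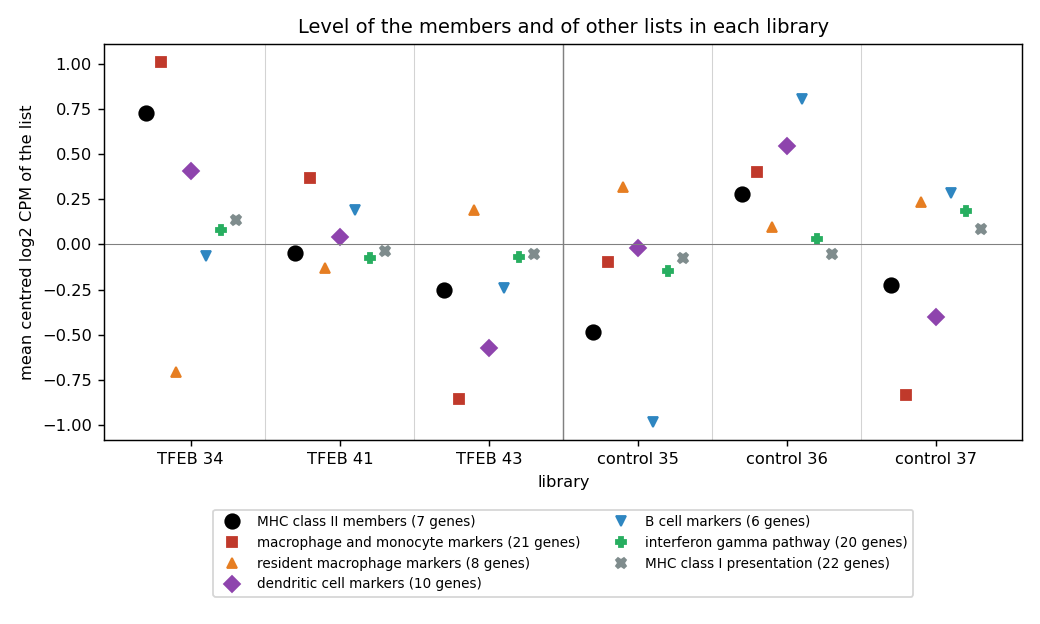
Level of each list (y axis, mean log2 CPM relative to each gene's mean) in each library (x axis), TFEB libraries left of controls. The members lie at 0.73 in TFEB 34 and −0.48 in control 35, while macrophage and monocyte markers are lowest in TFEB 43 and control 37, at −0.86 and −0.84.

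The genes whose pattern over the 6 libraries was nearest to the members were found among 11090 genes with at least 5 CPM on average. Nearness was the root mean square difference in centred log2 CPM from the level of the 7 members. The closest outside the members were Prex1, a Rac exchange factor of leukocytes and endothelium (0.055), the muscle intermediate filament gene Des (0.069), the G protein regulator gene Rgs4 (0.083), moesin (Msn, 0.094) and the inhibitory SMAD gene Smad6 (0.10). The median of all genes compared was 0.44. Among the members themselves it was 0.046 for H2-Aa, 0.047 for H2-Ab1, 0.10 for Cd74, 0.11 for H2-Eb1, 0.12 for H2-DMb1, 0.15 for H2-DMa and 0.21 for Ciita. Ciita was thus the member farthest from the level of the 7. Each member is part of that level, so these values cannot be set against those of the outside genes. With only 6 libraries this list was not stable: of the 5 genes, 1 stayed among the 5 closest without TFEB 34, 3 without TFEB 41, 2 without TFEB 43, 0 without control 35, 3 without control 36 and 4 without control 37.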

How the data were processed

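RNA sequencing of 3 TFEB overexpression and 3 control mouse heart libraries was analysed. Per the submitters' processing notes, the tools were RSEM 1.3.1, HISAT2 2.1.0, DESeq2 1.4.5 and Bowtie2 2.3.4.3, with mm10. Their roles, the strand setting, filters and the annotation release are not given in the labels or headers. Per the file headers, the authors deposited estimated counts, TPM and FPKM for 62498 RefSeq transcripts. The estimated counts the authors deposited are not scaled; the deposited TPM are scaled for length and depth to a fixed sum, and the deposited FPKM for length and depth. Columns for normalised counts are empty.

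Estimated counts were summed per Entrez gene and rounded. Symbols came from the RefSeq table of GRCm38.p6; 117 of 17524 genes, with 0.510% of counts, had none. In R 4.3.3, genes were filtered with filterByExpr, scaled with TMM and compared by the two-sided quasi-likelihood test of edgeR 4.0.16. P-values were adjusted by Benjamini-Hochberg over 13565 genes and called under 0.05. It was tested on simulated data. Log2 CPM used a prior count of 2. TPM ratios were compared by exact permutation with scipy 1.17.1. Transcript lengths and starts came from GENCODE M21. Libraries held 12942480 to 14969287 estimated counts; the spread between libraries, not counting error, sets the precision.

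The members and lists (15 lists, 188 genes) were chosen with earlier results of these data known. Named were all members, up to 4 genes of smallest p per list, some fixed markers and the 5 genes nearest the members' level. Alternatives were RLE and upper-quartile scaling, DESeq2 1.42.0, no filter, 10 counts in 3 libraries, limma-trend (limma 3.58.1) on log2(TPM + 1) and log2(TPM + 0.1) with at least 1 TPM in 3 libraries, FPKM or counts for ratios, and each library left out. Figures were drawn with matplotlib 3.10.9.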

Additional observations from a re-analysis of the deposited data

How the results depend on the processing

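Over 13 alternatives for each of the 7 members, 84 of 91 log2 fold changes kept their direction and none passed the test, the smallest adjusted p being 0.792 (edgeR, DESeq2 or limma). Those that changed sign without TFEB 34 were H2-Aa (−0.0496) and H2-DMb1 (−0.132). Ciita changed sign on log2(TPM + 1) (0.0012) and log2(TPM + 0.1) (0.0062) by limma-trend, without TFEB 41 (0.0385), without TFEB 43 (0.162) and without control 36 (0.363); the cause was not tested. Leaving out each library gave −0.0496 to 0.603 for H2-Aa, 0.0216 to 0.606 for H2-Ab1, 0.0549 to 0.732 for H2-Eb1, 0.124 to 0.542 for H2-DMa, −0.132 to 0.541 for H2-DMb1, 0.0943 to 0.687 for Cd74 and −0.411 to 0.363 for Ciita. The count of genes called was 0 in every alternative but DESeq2, which called 1, and the cause was not tested. Genes at an unadjusted p under 0.05 numbered 164 with all libraries, 289 without a filter and 88 to 581 with a library left out. Among the ratios, the log2 ratio of H2-Eb1 over H2-Ab1 was 0.059 with all libraries and −0.048 without control 35, where it changed sign, in a range from −0.048 to 0.146 over the libraries left out. The other 4 ratios and the share of the long Cd74 model kept their direction under FPKM, under estimated counts and without each library. Scaling moved the median of all genes by less than 0.1 on the log2 scale. No paired analysis was possible because the library numbers in the titles are not shared between the groups. Members near 5 to 12 CPM rest on 58 to 189 estimated counts a library, so that counting error is a larger part of their spread.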
